A study of Mus musculus with 4 samples.

Results

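The genes described here encode 10 subunits of Polycomb repressive complex 1 (PRC1), a protein complex that modifies chromatin and keeps genes silent. They are the RING finger ligases *Rnf2* and *Ring1*, the Polycomb group ring finger (PCGF) subunits *Bmi1*, *Pcgf1*, *Pcgf2*, *Pcgf3*, *Pcgf5* and *Pcgf6*, and the chromobox subunits *Cbx7* and *Cbx8*. The genes were taken as a named set by their symbols, with no threshold on a measured value. They are 10 of the 55573 genes counted in each library. All 10 had reads in every library, and all 10 were among the 16832 genes that passed the expression filter and were compared between genotypes.

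PRC1 attaches a single ubiquitin to histone H2A, and either RNF2 (also known as RING1B) or RING1 (RING1A) serves as its ubiquitin ligase. Each complex holds one PCGF protein, which sets the kind of complex that forms. BMI1 and PCGF2 build canonical PRC1, in which a CBX protein binds the histone mark H3K27me3 laid down by PRC2, while variant PRC1 holds RYBP or YAF2 in place of a CBX protein. In the developing brain, BMI1 is known for the self-renewal of neural stem cells, where it represses the cell cycle inhibitor gene *Cdkn2a*. DNMT1 is the DNA methyltransferase that copies methylation at CG dinucleotides to newly made strands.

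The libraries were made from tdTomato-positive cells, enriched by fluorescence-activated cell sorting of living, DAPI-negative cells from mouse embryos at embryonic day (E) 16, with the day of insemination counted as E1. All embryos carried *Hmx3-Cre* and the *tdTomato* reporter on a C57BL/6J background, so that the sorted cells were *Hmx3*-expressing cells and their descendants, labelled as premature interneurons. The wild-type (WT) embryos had functional *Dnmt1*, and the knockout (KO) embryos had the *Dnmt1 loxP2* allele, in which Cre removes exons and leaves a null allele in *Hmx3*-lineage cells, not in the whole embryo. The labels give the basal telencephalon as the dissected region, whereas the paper gives the preoptic area (POA), which lies within it. There were 2 libraries per genotype, from cells pooled from 12 WT and 6 KO embryos. They are called biological replicates in the labels and technical duplicates of pooled samples in the paper, so the SDs and p-values describe the spread between libraries, which may be technical.

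Total counts ranged from 8075102 to 9995968 per library, and 3 counts corresponded to between 0.294 and 0.372 CPM (counts relative to the TMM-scaled size of each library). The share of mitochondrial rRNA was 8.66% in WT replicate 1 and 1.51% to 2.32% elsewhere. *Dnmt1* itself, the targeted gene, was at 385 and 446 CPM in the WT libraries and at 283 and 281 CPM in the KO libraries. Each KO library was lower than each WT library, and the fitted difference of -0.56 ± 0.14 on the log2 scale (SE, n = 2 per genotype) did not pass the threshold (edgeR adjusted p = 0.0511), while DESeq2 called it (adjusted p = 0.00843). Counts over the whole gene do not resolve the deleted exons. *Hmx3*, which marks the lineage, was at 78.6 and 90.0 CPM in WT and at 71.8 and 93.7 CPM in KO. The 8 interneuron markers measured were present in every library, with a median log2 fold change of -0.25, and 0 of 8 were called changed by edgeR, DESeq2 or limma-voom (2 at an unadjusted edgeR p under 0.05).

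Markers of cell types other than neurons also differed between the genotypes. By edgeR, the 10 astrocyte markers all rose in KO, and their summed level was 231 to 241 CPM in WT and 3714 to 3918 CPM in KO, with *Gfap* at 0 counts in both WT libraries. Of the 8 oligodendrocyte markers 7 rose (sum of 130 to 154 CPM in WT and 560 to 580 CPM in KO, *Opalin* at 0 in both WT libraries), and of the 7 mural cell markers 6 rose (sum of 49.2 to 53.8 CPM in WT and 398 to 409 CPM in KO, *Acta2* at 0 in both WT libraries). The median log2 fold changes of these lists were 4.29, 2.93 and 2.88, and 4.29, 2.67 and 2.88 with each gene at 0 in WT set to its lower bound. Among 10 neuron markers, *Stmn2*, *Syt1* and *Elavl4* fell and 7 were not called by edgeR, with a median of -0.65 and a sum of 5770 to 6386 CPM in WT and 4267 to 4335 CPM in KO. The log2 fold changes of the neuron markers ran from -0.81 to 0.03. The part of these marker changes in the PRC1 values was not tested.

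Of 5 oligodendrocyte precursor markers 1 rose by edgeR (*Olig2*; median 0.46, sum of 1283 to 1339 CPM in WT and 1631 to 1707 CPM in KO), and of 7 tested microglia markers 2 rose (*Csf1r* and *Ctss*; median 1.07, sum of all 8 listed of 28.6 to 33.8 CPM in WT and 61.5 to 66.2 CPM in KO). Of 4 tested choroid plexus markers 1 fell (*Ttr*, at 40.8 and 55.3 CPM in WT and 0.951 and 1.10 CPM in KO), and the sum of all 5 listed was 53.1 to 69.0 CPM in WT and 7.73 to 9.25 CPM in KO. DESeq2 called 4 neuron, 7 mural cell, 2 oligodendrocyte precursor and 3 microglia markers. Both edgeR and DESeq2 called 0 of 5 tested endothelial markers (sum of all 7 listed of 16.4 to 17.5 CPM in WT and 17.1 to 19.4 CPM in KO, 3 at an unadjusted p under 0.05) and 0 of 7 cycling progenitor markers (median -0.04, sum of 628 to 642 CPM in WT and 635 to 671 CPM in KO, 1 at an unadjusted p under 0.05).

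The PRC1 genes differed in both directions when the genotypes were compared. *Rnf2*, the more abundant ligase, fell in KO cells, and *Cbx7*, the less abundant of the CBX members, rose. The other 8 members did not pass the test, although 6 of the 10 had an unadjusted edgeR p under 0.05, as did 22.7% of all 16832 genes. For comparison, the edgeR quasi-likelihood test with Benjamini-Hochberg adjustment called 7.9% of all 16832 genes at an adjusted p under 0.05, against 2 of the 10 members. By direction, 7.33% of all genes were higher in KO, against 1 member (*Cbx7*), and 0.57% were lower, against 1 member (*Rnf2*). Of the calls over all genes, 92.8% were higher in KO, and this share was 64.7% once trends with gene length and GC content had been corrected, 66.5% without WT replicate 1 and 48.2% without WT replicate 2. The share of all genes called lower was likewise unstable, at 5.81% with that correction, 7.15% without WT replicate 1 and 12% without WT replicate 2. The KO libraries were both lower than the WT libraries for 5 members (*Rnf2*, *Bmi1*, *Pcgf3*, *Pcgf6* and *Cbx8*), as they were for 25.2% of all genes, and above them for 2 members (*Pcgf5* and *Cbx7*), as they were for 28.3%. The median log2 fold change of the 10 members was -0.15, within a range from -0.82 to 1.20, while over all genes the median was -0.03 and the middle 50% lay between -0.28 and 0.41. In sorted, pooled cells, fewer cells of a type and less RNA per cell cannot be told apart.

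**Figure D1:**
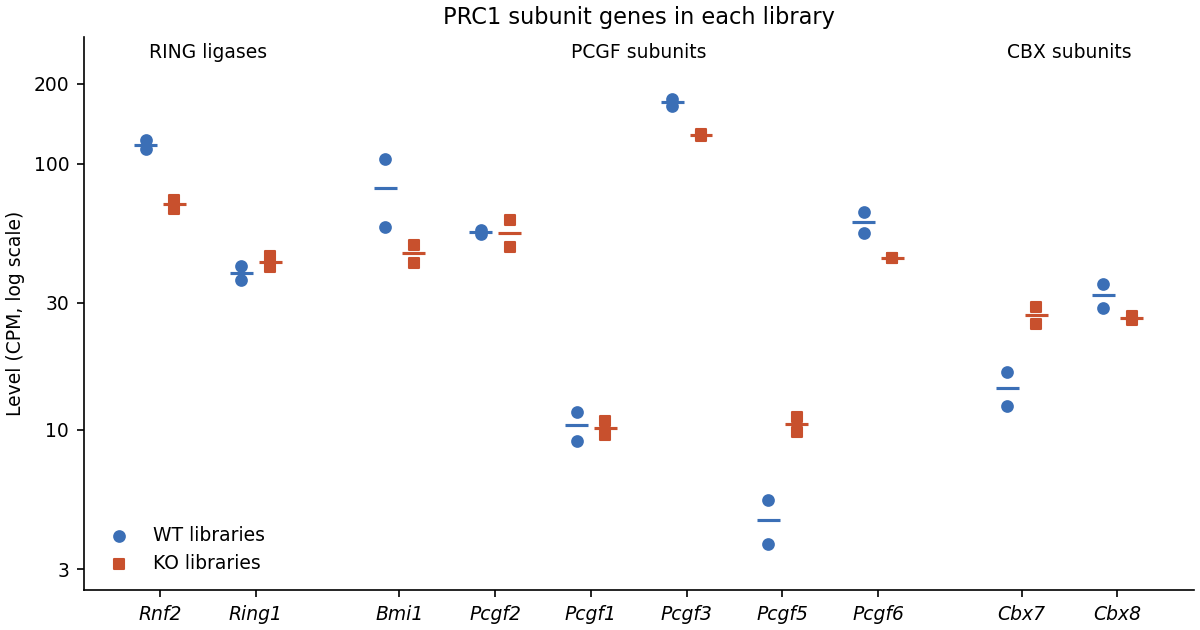
Level of each PRC1 subunit gene in every library, in CPM on a log scale, with blue circles for WT libraries, red squares for KO libraries and a line at the mean of the 2 libraries. The KO squares lie below the WT circles for *Rnf2*, *Bmi1*, *Pcgf3*, *Pcgf6* and *Cbx8*, above them for *Pcgf5* and *Cbx7*, and overlap them for *Ring1*, *Pcgf2* and *Pcgf1*.

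The upstream DNA of the members on which the results turn is shown because DNMT1 acts on CG dinucleotides, which are written in capitals. The sequences are the 250 bases before the RefSeq transcription start on GRCm38.p6, printed 5′ to 3′ along the gene's strand, and methylation of these bases was not analysed here. *Rnf2* starts after chr1:151500992-151501241 (minus strand), *Bmi1* after chr2:18676768-18677017 (plus strand), *Cbx7* after chr15:79932647-79932896 (minus strand) and the most upstream start of *Pcgf5* after chr19:36348079-36348328 (plus strand).
Rnf2: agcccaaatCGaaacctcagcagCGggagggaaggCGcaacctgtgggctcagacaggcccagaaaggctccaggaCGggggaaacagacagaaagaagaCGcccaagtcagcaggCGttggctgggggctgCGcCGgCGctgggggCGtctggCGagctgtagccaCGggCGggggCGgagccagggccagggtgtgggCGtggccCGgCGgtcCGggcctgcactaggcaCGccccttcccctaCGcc
Bmi1: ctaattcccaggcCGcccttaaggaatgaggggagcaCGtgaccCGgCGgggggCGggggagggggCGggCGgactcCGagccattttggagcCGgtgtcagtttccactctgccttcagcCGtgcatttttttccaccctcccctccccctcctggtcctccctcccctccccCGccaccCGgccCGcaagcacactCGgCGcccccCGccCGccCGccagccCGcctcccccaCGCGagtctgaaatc
Cbx7: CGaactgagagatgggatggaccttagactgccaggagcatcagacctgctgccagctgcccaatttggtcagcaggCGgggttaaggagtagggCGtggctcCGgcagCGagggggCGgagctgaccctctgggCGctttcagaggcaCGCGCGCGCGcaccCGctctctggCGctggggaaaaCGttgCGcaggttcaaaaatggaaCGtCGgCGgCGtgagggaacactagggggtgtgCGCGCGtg
Pcgf5: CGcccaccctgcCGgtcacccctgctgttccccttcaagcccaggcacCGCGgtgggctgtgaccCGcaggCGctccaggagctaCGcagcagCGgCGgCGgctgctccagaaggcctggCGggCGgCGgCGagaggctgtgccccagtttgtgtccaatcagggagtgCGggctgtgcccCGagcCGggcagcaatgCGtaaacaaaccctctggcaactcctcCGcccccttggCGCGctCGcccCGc

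These windows held many CG dinucleotides. The window of *Rnf2*, which fell, held 20 CG dinucleotides, and that of *Cbx7*, which rose, held 23. The windows of *Bmi1* and *Pcgf5* held 21 and 23. The median of 32851 RefSeq windows of the same length was 6, and 17.9%, 13.3%, 16.3% and 13.3% of them held at least as many as those of *Rnf2*, *Cbx7*, *Bmi1* and *Pcgf5*, respectively. RefSeq windows were matched for 9 of the 10 members, all except *Pcgf1*, and gave 11 windows since *Pcgf5* has 3 starts. *Ring1*, the second ligase, had the most CG dinucleotides among them, 30, whereas *Pcgf2*, the paralogue that takes the place of *Bmi1* in other canonical complexes, had 5. The other 2 starts of *Pcgf5* had 4 and 28. The E-box CACGTG, read the same on both strands, occurred in the windows of *Bmi1*, *Pcgf2* and *Cbx8* and in 6.02% of all windows. The E2F core GCGGGAA, or TTCCCGC on the other strand, occurred in the most downstream *Pcgf5* window and in 3.82% of all windows. A match describes these letters and not binding.

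*Rnf2* encodes the catalytic RING finger protein that supplies most H2A ubiquitin ligase activity in many cell types, and it lies at chr1:151458004-151500955 on the minus strand (GRCm38). It had 989 and 1155 counts in the WT libraries and 616 and 616 in the KO libraries, or 123 and 113 CPM against 73.2 and 67.8 CPM. The groups were well apart, with a mean of 118 ± 6.79 CPM in WT and 70.5 ± 3.81 CPM in KO (SD, n = 2 libraries each). This gave a log2 fold change of -0.74 ± 0.15 (SE; 95% interval from -1.08 to -0.40), which puts KO cells at 0.598 times the WT level (edgeR adjusted p = 0.0177). *Rnf2* passed an adjusted p of 0.05 in all 11 alternative fits that kept every library. With the length and GC correction the fall was smaller, at -0.54 on the log2 scale (edgeR adjusted p = 0.0326). With the KO genotype reduced to 1 library, the value was -0.78 without KO replicate 1 (edgeR adjusted p = 0.141) and -0.68 without KO replicate 2 (edgeR adjusted p = 0.293), and the call was lost. The gene *Trmt1l* on the opposite strand shares 3.83% of the exonic bases of *Rnf2*, and without a stated strand setting its reads cannot be told apart there.

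*Ring1* encodes the second ligase, which can stand in for RNF2 in part, and it lies at chr17:34020792-34024680 on the minus strand. It was at 36.5 and 41.2 CPM in WT and at 40.8 and 45.0 CPM in KO, so the groups overlapped. Its log2 fold change was 0.14 ± 0.16 (95% interval from -0.23 to 0.52, edgeR adjusted p = 0.647), so that a fall as large as that of *Rnf2* lay outside this interval. Taken per kilobase of exon, *Rnf2* made up 72.6% and 68.3% of the reads of the *Rnf2* and *Ring1* pair in WT and 58.5% and 54.2% in KO. Its share was thus 14.1 percentage points lower in KO, without overlap between the genotypes. An exact two-sided permutation test gave p = 0.333, the smallest that 4 libraries allow, so this difference in share could not reach a threshold of 0.05. The summed level of both ligases was 41.0 and 40.1 CPM per kb in WT and 30.3 and 30.3 CPM per kb in KO.

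*Bmi1* (PCGF4), a PCGF subunit of canonical PRC1, lies at chr2:18677018-18686629 on the plus strand. In WT 843 and 592 reads were counted and in KO 418 and 385, or 105 and 58.0 CPM against 49.7 and 42.4 CPM. Both KO libraries were below both WT libraries, but the WT libraries were far from each other, with a mean of 81.3 ± 33.0 CPM against 46.0 ± 5.16 CPM in KO (SD, n = 2 libraries each). WT replicate 1, the library with the larger share of mitochondrial rRNA, was the high one. The log2 fold change was -0.82 ± 0.26 (95% interval from -1.42 to -0.21), with an edgeR p of 0.0144. It did not pass the adjusted threshold (edgeR adjusted p = 0.112). With mitochondrial and rRNA genes left out the value was -0.80 (edgeR adjusted p = 0.0925). The part of the mitochondrial rRNA share in the result was not tested otherwise. Without WT replicate 1 the log2 fold change was -0.34, and without WT replicate 2 it was -1.20. Without KO replicate 1 or 2 it was -0.92 and -0.70. Such fits leave 1 library in a genotype and assume that it varies like the other genotype. *Bmi1* passed under DESeq2 (-0.82, adjusted p = 0.0262), without a filter (-0.81, edgeR adjusted p = 0.000368) and in the fit corrected for length and GC trends (-0.59, edgeR adjusted p = 0.0137).

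*Pcgf2* (MEL18), the paralogue that takes the place of BMI1 in other canonical complexes, lies at chr11:97688823-97700497 on the minus strand. It was at 54.2 and 56.3 CPM in WT and at 48.6 and 61.3 CPM in KO. The KO values enclosed the WT values, and the log2 fold change was -0.01 ± 0.17 (95% interval from -0.39 to 0.38, edgeR adjusted p = 0.988). Per kilobase, *Bmi1* made up 63.1% and 47.7% of the *Bmi1* and *Pcgf2* pair in WT and 47.6% and 38.0% in KO. The lowest WT and the highest KO share were nearly equal, and the exact two-sided permutation p was 0.333, again the smallest possible.

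**Figure D2:**
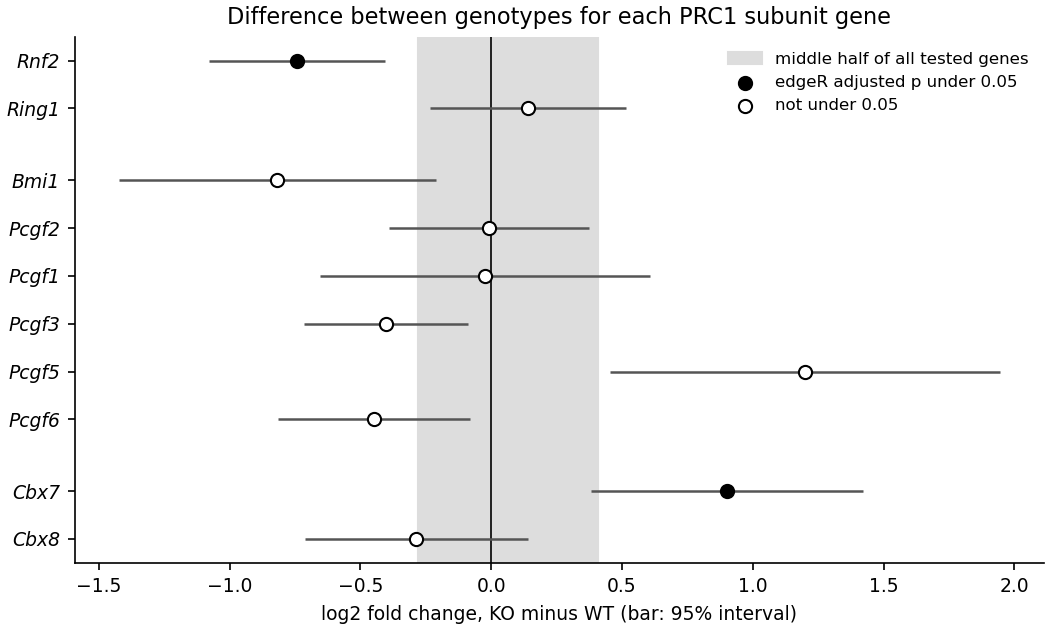
Log2 fold change of each PRC1 subunit gene, KO minus WT, with its 95% interval as a bar, filled for an edgeR adjusted p under 0.05. *Rnf2* (-0.74) and *Cbx7* (0.90) are filled, *Bmi1* (-0.82) and *Pcgf5* (1.20) lie as far out with wider intervals, and the grey band from -0.28 to 0.41 holds the middle 50% of all tested genes.

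The remaining PCGF genes belong to variant PRC1. *Pcgf3* and *Pcgf5* encode paralogues found in complexes with AUTS2 and FBRS, and their values lay on opposite sides of the WT levels. *Pcgf3* (chr5:108461232-108506976, plus strand) was counted 1411 and 1684 times in WT, and 1071 and 1179 times in KO, or 175 and 165 CPM against 127 and 130 CPM. Its log2 fold change was -0.40 ± 0.14 (95% interval from -0.72 to -0.09, edgeR adjusted p = 0.127). The value was -0.37 without WT replicate 1, -0.46 without WT replicate 2, -0.38 without KO replicate 1 and -0.41 without KO replicate 2. *Pcgf5* (chr19:36348309-36460970, plus strand) was at a far lower level, 44 and 38 reads in WT compared to 94 and 89 in KO. In CPM these were 5.46 and 3.72 against 11.2 and 9.80, so that both KO libraries were above both WT libraries. The log2 fold change of 1.20 ± 0.32 (95% interval from 0.45 to 1.94) was the highest among the members, and it missed the threshold (edgeR adjusted p = 0.0652). It passed with upper quartile scaling (edgeR adjusted p = 0.0452) and with scaling by library size (edgeR adjusted p = 0.0188). It also passed without a filter (edgeR adjusted p = 0.0123) and with the length and GC correction (1.40, edgeR adjusted p = 0.00598). The value was 1.48 without WT replicate 1, 0.93 without WT replicate 2, 1.11 without KO replicate 1 and 1.29 without KO replicate 2. The antisense gene *F530104D19Rik* shares 0.475% of the exonic bases of *Pcgf5*.

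*Pcgf6* (chr19:47033617-47050906, minus strand) encodes the PCGF subunit of the complex with MGA, MAX and E2F6, which represses germ cell genes. It was at 65.7 and 54.8 CPM in WT and at 44.1 and 44.2 CPM in KO, with both KO libraries lower. The log2 fold change was -0.45 ± 0.16 (95% interval from -0.81 to -0.08, edgeR adjusted p = 0.144). It was -0.58 without WT replicate 2 and -0.32 without WT replicate 1. Without KO replicate 1 or 2 it was -0.43 and -0.44. *Pcgf1* (chr6:83077869-83080855, plus strand) encodes the partner of BCOR and KDM2B, through which PRC1 is brought to unmethylated CpG islands. WT libraries held 94 and 93 of its reads and KO libraries 91 and 87, or 11.7 and 9.11 CPM against 10.8 and 9.58 CPM. Its groups overlapped, with a fold change of -0.02 ± 0.27 on the log2 scale. The 95% interval ran from -0.65 to 0.61, so that these libraries do not exclude differences within these bounds.

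*Cbx7* (chr15:79915807-79971119, minus strand) encodes a chromodomain protein of canonical PRC1 that binds H3K27me3. Its reads numbered 99 and 168 in WT, and 210 and 263 in KO, or 12.3 and 16.5 CPM against 24.97 and 28.97 CPM. Both KO libraries were above both WT libraries, with means of 27.0 ± 2.83 CPM and 14.4 ± 2.95 CPM (SD, n = 2 libraries each). The log2 fold change was 0.90 ± 0.23 (95% interval from 0.38 to 1.42), or 1.87-fold, and it passed the threshold narrowly (edgeR adjusted p = 0.0496). The call was lost when only genes with at least 10 counts in every library were kept (0.94, edgeR adjusted p = 0.0505), without KO replicate 1 (1.02, edgeR adjusted p = 0.0745) and without KO replicate 2 (0.80, edgeR adjusted p = 0.350). *Apobec3* on the opposite strand shares 1.54% of its exonic bases.

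*Cbx8* (chr11:119036305-119040969, minus strand), which encodes another H3K27me3-binding CBX protein, was at 28.8 and 35.5 CPM in WT and at 25.9 and 26.9 CPM in KO. Its KO libraries were lower, at -0.29 ± 0.18 on the log2 scale (95% interval from -0.71 to 0.14, edgeR adjusted p = 0.400). The share of *Cbx7* in this pair was higher in both KO libraries than in either WT library. Per kilobase it made up 19.5% and 20.8% of the *Cbx7* and *Cbx8* reads in WT and 35.3% and 37.9% in KO, while their summed level, 9.73 and 12.2 CPM per kb in WT and 10.9 and 11.8 in KO, overlapped between the genotypes. The exact two-sided permutation p was 0.333 for this share, the smallest that 4 libraries allow.

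**Figure D3:**
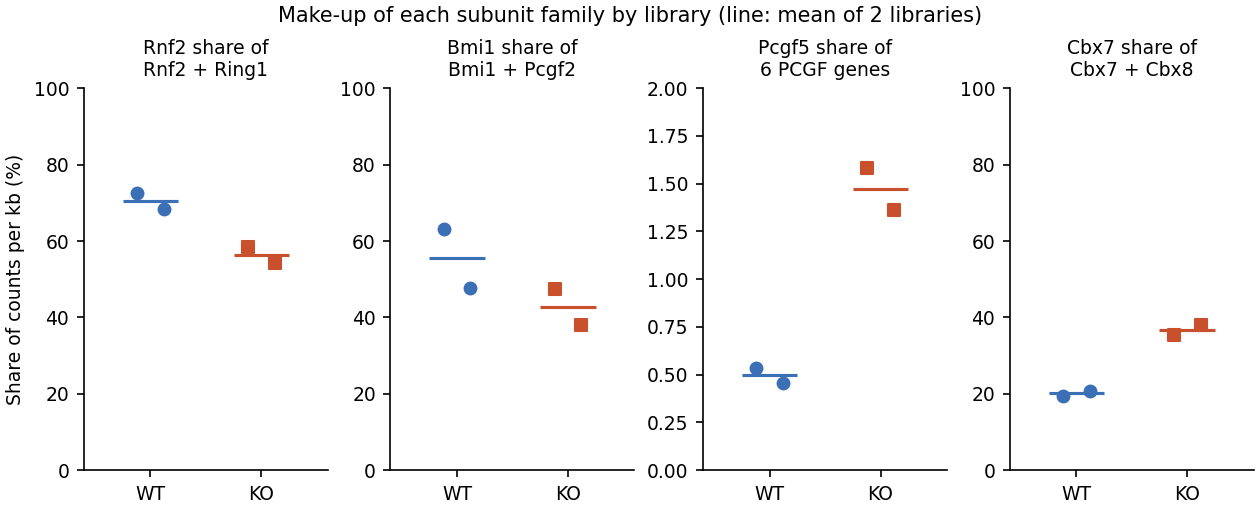
Share of reads per kilobase of exon, in percent, that 1 gene takes of a pair (*Rnf2* with *Ring1*, *Bmi1* with *Pcgf2*, *Cbx7* with *Cbx8*) or, for *Pcgf5*, of all 6 PCGF genes in each library, with blue circles for WT, red squares for KO and a line at the mean of 2 libraries. From left to right, the mean share goes from 70.4% in WT to 56.4% in KO for *Rnf2*, from 55.4% to 42.8% for *Bmi1*, from 0.496% to 1.47% for *Pcgf5* and from 20.1% to 36.6% for *Cbx7*, and the vertical axes differ in range.

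Levels were set between genes per kilobase of annotated exon. In WT cells *Rnf2* was the highest member with 28.6 ± 1.64 CPM per kb (SD, n = 2 libraries here and below). *Bmi1* (20.5 ± 8.30) and *Pcgf3* (17.8 ± 0.752) followed with overlapping libraries, then *Pcgf2* with 15.7 ± 0.420. The WT libraries of *Bmi1* enclosed those of *Pcgf2* as well, and *Bmi1* was the lower of the pair in WT replicate 2. *Ring1* (12.0 ± 1.04) and *Pcgf6* (12.0 ± 1.53) overlapped each other. The variant PRC1 gene *Pcgf1* (6.30 ± 1.10) stood below *Cbx8* (8.74 ± 1.28), and the genes that were higher in KO, *Cbx7* (2.22 ± 0.455) and *Pcgf5* (0.364 ± 0.0973), were the lowest of the WT order.

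In KO cells the top of the order closed up. *Rnf2* (17.1 ± 0.924) overlapped *Pcgf2* (15.6 ± 2.55), *Pcgf3* (13.5 ± 0.187) overlapped *Ring1* (13.2 ± 0.930), and *Bmi1* stood at 11.6 ± 1.30, below *Ring1*. The lower 5 places were held in the same order as in WT by *Pcgf6* (8.78 ± 0.00795), *Cbx8* (7.18 ± 0.184), *Pcgf1* (6.19 ± 0.530), *Cbx7* (4.16 ± 0.436) and *Pcgf5* (0.831 ± 0.0769). The summed level of the 6 PCGF genes was 80.6 and 64.6 CPM per kb in WT and 55.9 and 57.0 CPM per kb in KO. The order depends on the length used. With the longest annotated transcript in place of all exons, *Bmi1*, *Pcgf2*, *Pcgf3* and *Pcgf6* were at 22.6, 22.3, 22.1 and 21.3 CPM per kb in WT, while *Rnf2* stayed first at 36.9 and *Pcgf1* (11.3) stood above *Cbx8* (8.98). In KO that length put *Pcgf2* (22.13) first, just above *Rnf2* (22.04), *Ring1* (16.8) above *Pcgf3* (16.7), *Pcgf6* (15.6) above *Bmi1* (12.8) and *Pcgf1* (11.1) above *Cbx8* (7.37).

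The other 27 PRC1 genes examined, all of them tested, gave no call by edgeR at an adjusted p under 0.05, and 3 had an unadjusted p under 0.05. Over all genes these shares were 7.9% and 22.7%. DESeq2 and limma-voom also called 0 of the 27, and leaving out a WT library added calls, as it did over all genes. The 7 other canonical genes, which comprise *Cbx2*, *Cbx6*, the polyhomeotic genes *Phc1* to *Phc3* and the sex comb genes *Scmh1* and *Scml2*, lay between -0.24 and 0.24 on the log2 fold change scale with a median of -0.04. The smallest p-values among them belonged to *Phc3* (80.7 and 51.5 CPM in WT, 82.5 and 73.0 CPM in KO), *Phc1* (123 and 122 CPM in WT, 108 and 117 CPM in KO) and *Scml2* (10.9 and 12.7 CPM in WT, 8.32 and 11.7 CPM in KO). Their log2 fold changes were 0.24, -0.12 and -0.24, and the smallest edgeR adjusted p was 0.560.

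For the 20 partners of variant PRC1 the log2 fold changes ranged from -0.64 to 0.34 around a median of -0.17. The 3 with the smallest p were all lower in both KO libraries. *Rybp*, which encodes the subunit that takes the place of CBX proteins and stimulates the ligase, was at 37.9 and 32.6 CPM in WT and at 23.3 and 23.0 CPM in KO (-0.60 ± 0.18 on the log2 scale, edgeR adjusted p = 0.0871). Its paralogue *Yaf2* was at 31.2 and 25.8 CPM in WT and at 23.1 and 13.5 CPM in KO (-0.64 ± 0.27, edgeR adjusted p = 0.211). *Csnk2a1*, a casein kinase 2 catalytic subunit found in PCGF3 and PCGF5 complexes, was at 141 and 110 CPM in WT and at 96.3 and 81.7 CPM in KO (-0.49 ± 0.17, edgeR adjusted p = 0.144).

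Genes that remove ubiquitin from H2A or bind it did not pass the test either. Of the 8 listed, 0 were called by edgeR at an adjusted p under 0.05 and 0 had an unadjusted p under 0.05. Over all genes these shares were 7.9% and 22.7%. DESeq2 and limma-voom called 0 of the 8, and leaving out a WT library added calls, as it did over all genes. Their log2 fold changes ran from -0.27 to 0.13 with a median of -0.13. *Bap1*, the catalytic subunit of the H2A deubiquitinase PR-DUB, had the smallest p, with 150 and 176 CPM in WT and 139 and 132 CPM in KO (-0.27 ± 0.15, edgeR adjusted p = 0.319). *Dnajc2* (-0.27, edgeR adjusted p = 0.352), which encodes a reader of ubiquitinated H2A, and the deubiquitinase gene *Usp16* (-0.19, edgeR adjusted p = 0.497) followed.

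Of 18 genes known as Polycomb targets in many cell types, 5 had enough reads to be tested. *Tbx3*, a T-box transcription factor gene, fell from 17.4 and 13.2 CPM in WT to 1.78 and 2.75 CPM in KO (-2.74 ± 0.35 on the log2 scale, edgeR adjusted p = 0.00199). *Eomes* was at 37.2 and 43.0 CPM in WT and at 25.4 and 26.3 CPM in KO (-0.63 ± 0.17, edgeR adjusted p = 0.0655). It passed without a filter and with the length and GC correction. *Nkx2-2* was at 5.46 and 6.56 CPM in WT and at 8.32 and 10.1 CPM in KO (0.61 ± 0.30, edgeR adjusted p = 0.270). The other tested genes were *Lhx1* (27 and 10 counts in WT, 5 and 12 in KO, edgeR adjusted p = 0.422) and *Cdkn1a* (13 and 30 counts in WT, 24 and 37 in KO, edgeR adjusted p = 0.524), and their groups overlapped. The median over the 5 genes was -0.63.

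The best known target of BMI1 was hardly detected in either genotype. *Cdkn2a* had 1 count in WT replicate 1 and 0 in the other 3 libraries. Its neighbour *Cdkn2b* was at 0 counts in both WT libraries, at 12 in KO replicate 1 and at 3 in KO replicate 2, and it did not pass the filter. *Gata4*, *Gata6*, *Foxa2* and *Wt1* had 0 counts in all libraries, which allows up to 0.372 CPM by counting error alone. The remaining 7 genes, *Sox17*, *Hand1*, *Pax3*, *Pax7*, *Nkx2-5*, *Msx1* and *T*, had at most 9 counts in any library and were not tested.

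**Figure D4:**
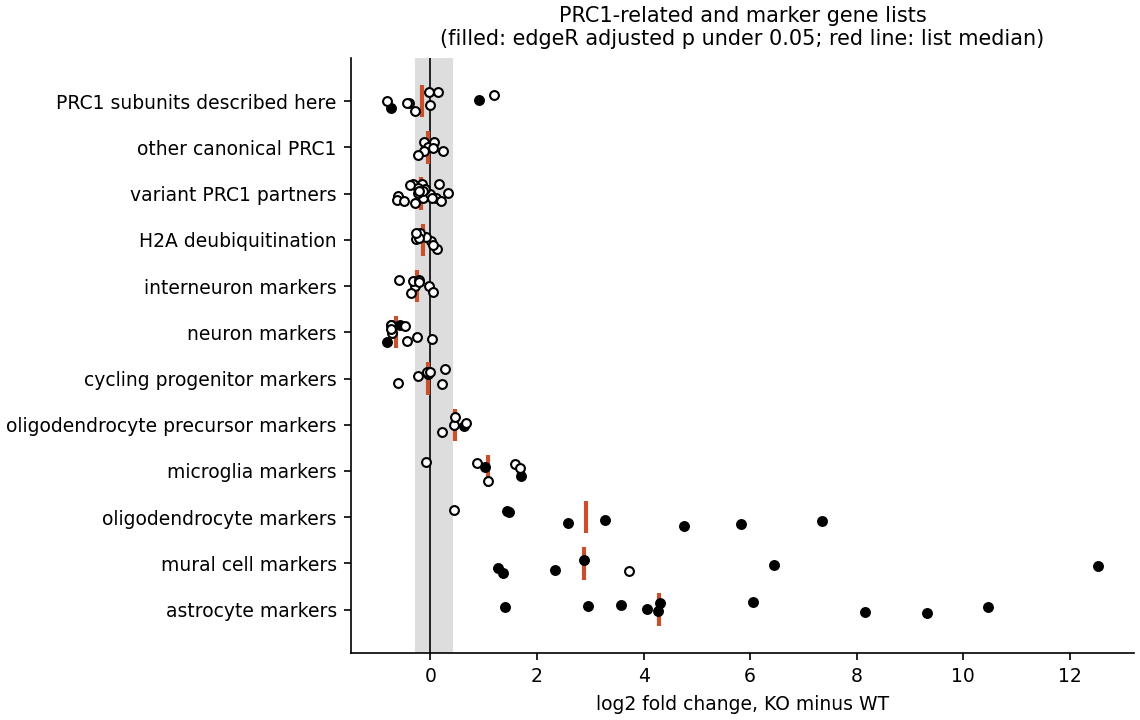
Log2 fold change, KO minus WT, of each tested gene in the PRC1-related lists and in marker lists of cell types, with 1 point per gene, filled for an edgeR adjusted p under 0.05, a red line at the list median and a grey band over the middle 50% of all tested genes. The PRC1 members reach from -0.82 to 1.20, and the other PRC1 and H2A deubiquitination genes are unfilled and lie between -0.64 and 0.34. All 10 astrocyte markers lie at 1.40 or above. A gene at 0 in both WT libraries is drawn at its fitted value, which is no bound.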

How the data were processed

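RNA of FACS-enriched tdTomato-positive cells was sequenced in 2 WT and 2 KO libraries. For each library the authors deposited 1 list of raw counts by Ensembl identifier. The submitters' processing notes name CASAVA 1.8.2, STAR 2.5.2a, featureCounts 1.5.0-p1 and the build GRCm38 (mm10). The annotation release and strand setting of the counting are not given in the sources used here, and unstranded counting would add reads of antisense genes. MeDIP data were not analysed here.

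Of 55573 identifiers, 55480 matched GENCODE release M21, which gave symbols, positions and exonic lengths. The counts were filtered by edgeR's expression filter, scaled by TMM and tested for genotype in R 4.3.3 by the quasi-likelihood test of edgeR 4.0.16, with Benjamini-Hochberg adjustment over 16832 genes and a threshold of 0.05. CPM used TMM-scaled library sizes. SEs were derived from the test statistic and 95% intervals from the t quantile with edgeR's total degrees of freedom. Intervals and floors of 3 counts cover counting error or library spread only. Shares were compared by exact permutation. RefSeq windows of GRCm38.p6 were searched for motifs on both strands. The procedure was tested on simulated data.

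The text names all 10 members, *Dnmt1*, and, in each PRC1-related list, every gene past the threshold or otherwise the 3 with the smallest p. Marker genes are named where they were called in lists with few calls or were at 0. *Dlx6os1* was left out of the interneuron list because its symbol has 2 identifiers. For 1 gene of the canonical list, results are not reported here. The members and lists were chosen with earlier results of these data known. The 2 WT libraries differed beyond sampling noise (a chi-square of 58.2 per degree of freedom), and so did the 2 KO libraries (4.31). Neither pair was thus 1 library deposited in duplicate, and n counts libraries, which does not tell technical from biological replicates.

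Results were recomputed with DESeq2 1.42.0 and with limma-voom (limma 3.58.1), with scaling by upper quartile, by library size or by the size factors of DESeq2, without a filter, with a minimum of 10 counts in every library, with a replicate block, with length and GC trends of each library removed by natural splines (5 degrees of freedom each), with that removal and the block together, without mitochondrial and rRNA genes, at other thresholds, per length of the longest transcript, and without each library in turn.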

Additional observations from a re-analysis of the deposited data

How the results depend on the processing

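Of the 2 member calls, *Rnf2* passed an adjusted p of 0.05 in all 11 alternative fits that kept every library and *Cbx7* in 10. The number of members called was 4 with no filter, 1 with at least 10 counts in every library, 4 with the length and GC correction (*Bmi1*, *Rnf2*, *Pcgf5* and *Cbx7*), 0 at an adjusted p under 0.01, 6 at an unadjusted p under 0.05, and 0 to 6 with a library left out, where the lone library is assumed to vary like the other genotype. It was 0 without KO replicate 1 or 2, 4 without WT replicate 1 and 6 without WT replicate 2. For the other PRC1 genes, against 0, the correction gave 3 (*Rybp*, *Csnk2a1* and *Dcaf7*) and leaving out a library 0 to 5 (*Phc3* and *Csnk2b* without WT replicate 1, and *Rybp*, *Yaf2*, *Mga*, *Csnk2a1* and *Skp1a* without WT replicate 2). For H2A deubiquitination genes, against 0, the correction gave 1 (*Bap1*) and leaving out a library 0 to 1 (*Bap1* without WT replicate 1, *Mysm1* without WT replicate 2). For Polycomb targets, against 1, no filter and the correction each gave 2 and leaving out a library 1 to 2 (*Eomes* added). Over all genes, against 1329, no filter gave 2363, at least 10 counts 883, the correction 2767 and leaving out a library 951 to 4209. *Dnmt1* passed at -0.57 with DESeq2 and with its size factors, -0.56 with limma-voom, -0.55 with no filter and without mitochondrial and rRNA genes, and -0.68 with the correction, and it ranged from -0.67 to -0.46 with a library left out. It did not pass without KO replicate 1 or 2 (adjusted p = 0.386 and 0.521), with library size (0.151), upper quartile (0.0645) or at least 10 counts (0.0739). Libraries of one number deviated from their genotype means with a correlation of 0.137. Crossed numbers gave -0.137, its mirror by construction with 2 libraries per genotype, so the sign is no evidence of pairing. Nothing else pairs the libraries. With the replicate block, 4 members (*Bmi1*, *Rnf2*, *Pcgf5* and *Cbx7*), 3 other PRC1 genes (*Rybp*, *Yaf2* and *Csnk2a1*), 2 Polycomb targets and 2244 of all genes were called, and *Dnmt1* passed at -0.56. With the block and the correction, 5 members were called (*Pcgf3* added), with 4 other PRC1 genes, 1 H2A deubiquitination gene and 2 Polycomb targets. That fit called 3054 of all genes, and *Dnmt1* passed at -0.68. The share of calls higher in KO was 72.4% with the block, 61.3% with both, 75.8% with no filter, 83.5% with DESeq2, and 48.2% to 94.6% with a library left out, the lowest without WT replicate 2, where calls lower in KO (2180) outnumbered higher ones (2029). Library-size scaling moved the median of all genes from -0.03 to 0.08. The sign of *Pcgf2*, *Pcgf1* and *Ring1*, none of them called, turned under 6, 5 and 2 of 15 alternatives. The causes were not tested, beyond the fewer genes or libraries that some settings leave by construction. Groups of 2 libraries limit the precision of each value.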
